A study of Mus musculus with 2 samples.

Results

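The genes described here are 9 markers of naive mouse embryonic stem (ES) cells, taken by symbol from the deposited gene table: Dppa2, Dppa3, Dppa4, Dppa5a, Zfp42, Tcl1, Nr0b1, Eras and Khdc3. All 9 were found among 32285 listed genes, in both libraries of the study. R1, an established male mouse ES cell line, was cultured for 72 hours in serum-free N2B27 medium and profiled by droplet single-cell RNA sequencing, with 1 library per culture. The LB culture grew on gelatin with the cytokine LIF and with BMP4. The LBPXRS culture grew on fibronectin with LIF, BMP4 and 4 added compounds. These were PD0325901 (a MEK inhibitor), Xav939 (a tankyrase inhibitor that lowers WNT signalling), SB431542 (an inhibitor of the NODAL and activin receptors) and Resorcyclic lactone, for which the labels name no target. The comparison asks how cells differ between these media, and since medium and substrate changed together they cannot be told apart.

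Naive ES cells resemble the inner cell mass of the blastocyst, and the genes examined generally fall, to differing degrees, as such cells leave that state. Dppa2 and Dppa4 encode paired SAP-domain proteins that bind chromatin, keep developmental promoters open to activation and can activate genes of the 2-cell embryo. Dppa3 (Stella, Pgc7) is a maternal and germ cell factor that shields DNA methylation patterns and restrains the methylation machinery. Zfp42 (Rex1) is a zinc finger protein related to Yy1 and the classical reporter of the naive state. Tcl1 and Eras act in the PI3K and AKT pathway: Tcl1 is an AKT co-activator and Eras a constitutively active Ras-like protein. Nr0b1 (Dax1) is an orphan nuclear receptor that binds pluripotency factors. Dppa5a and Khdc3 (Filia) belong to a family of KH-domain proteins of the oocyte and early embryo, and Khdc3 is part of the subcortical maternal complex.

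The genes lie on 6 chromosomes (GRCm38 coordinates from the GENCODE annotation). Dppa4 (chr16:48283733-48294237, plus strand) and Dppa2 (chr16:48303908-48319723, plus strand) are neighbours. Dppa5a (chr9:78367052-78368177, minus strand) and Khdc3 (chr9:73101836-73104438, plus strand) share chromosome 9. Nr0b1 (chrX:86191764-86195947, plus strand) and Eras (chrX:7924276-7928607, minus strand) are on the X. Dppa3 is at chr6:122626410-122630272 (plus strand), Zfp42 at chr8:43295063-43306980 (minus strand) and Tcl1 at chr12:105216750-105222793 (minus strand). Eras overlaps Pcsk1n on the opposite strand, and whether reads were counted by strand is not given in the sources used here. Reads from the pseudogenes Dppa3-ps, Dppa5b, Dppa5c and Zfp42-ps1, which the gene table does not list, could also reach or be withheld from their parent genes.

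Promoter windows, from 250 bases before to 50 after the annotated start, were taken from RefSeq (GRCm38.p6) and matched 5 of the 9 genes: Zfp42, Tcl1, Nr0b1, Eras and Khdc3. The windows of Zfp42, Eras and Khdc3 are printed 5′ to 3′ on the gene's strand because these genes behaved differently from each other between the cultures: Zfp42 changed direction with the LB cells used, Eras was higher in LBPXRS and Khdc3 lower. Capitals mark matches to the motifs searched.
Zfp42, chr8:43306960-43307259, minus strand: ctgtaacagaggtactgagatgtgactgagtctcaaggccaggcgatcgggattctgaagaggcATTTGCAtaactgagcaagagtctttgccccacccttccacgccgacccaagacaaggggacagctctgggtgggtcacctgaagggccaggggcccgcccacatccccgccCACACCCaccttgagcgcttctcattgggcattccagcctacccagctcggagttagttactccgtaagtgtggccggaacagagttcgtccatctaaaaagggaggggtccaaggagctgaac
Eras, chrX:7928558-7928857, minus strand: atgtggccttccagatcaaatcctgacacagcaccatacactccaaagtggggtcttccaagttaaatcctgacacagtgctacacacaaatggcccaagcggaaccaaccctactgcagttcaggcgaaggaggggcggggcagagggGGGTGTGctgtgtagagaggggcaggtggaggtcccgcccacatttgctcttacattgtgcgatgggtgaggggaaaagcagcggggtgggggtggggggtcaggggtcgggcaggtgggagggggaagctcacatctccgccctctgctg
Khdc3, chr9:73102148-73102447, plus strand: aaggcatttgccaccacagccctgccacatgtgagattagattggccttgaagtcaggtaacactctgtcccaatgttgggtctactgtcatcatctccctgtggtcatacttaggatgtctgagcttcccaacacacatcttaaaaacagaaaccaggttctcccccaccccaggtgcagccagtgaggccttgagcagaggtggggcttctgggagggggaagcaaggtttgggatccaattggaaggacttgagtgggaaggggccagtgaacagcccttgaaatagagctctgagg
Searched on both strands were AAGGTCA (Esrrb), GGGCGTG or GGGTGTG (Klf factors), CTTTGAT (Tcf factors) and ATTTGCA (Pou5f1). The Zfp42 window holds 1 Klf and 1 Pou5f1 match, the Eras window 1 Klf match, and the windows of Tcl1, Nr0b1 and Khdc3 no match to any of these letters. Of 32851 windows in the table, 15.5% hold a Klf match, 4.02% a Pou5f1 match, 4.72% an Esrrb match and 3.73% a Tcf match. The windows also differ in CpG dinucleotides, the sites of DNA methylation. Khdc3 has 0, Eras 8, Zfp42 11, Tcl1 11 and Nr0b1 14, against a median of 7 over all windows (quartiles 3 and 20). The Khdc3 window lies inside the GENCODE gene span given above, so the RefSeq and GENCODE starts of Khdc3 differ. These matches describe the letters only.

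After filtering, LB held 1783 cells (45490517 UMIs, counts of single captured RNA molecules; median 25418 per cell) and LBPXRS 2705 cells (51832444 UMIs; median 19058). Levels are UMIs summed over cells per 1000000 (CPM) with exact Poisson intervals at 95%. Shares of cells carry exact Clopper-Pearson intervals, and both cover counting error only. With 1 library per condition there is no replicate check and no test, so differences are counted by size: at least 2-fold on the scale log2((CPM + 1)/(CPM + 1)), among genes at 5 CPM or more in either group. In bulk sums, fewer cells expressing a gene and less RNA per cell cannot be told apart, so shares of cells are given as well. The libraries stood apart in more than medium. LB had 2872 UMIs of Y-linked genes and LBPXRS 1, although R1 is described as a male line. The reason for this difference was not tested. In addition, LBPXRS over LB had a median log2 ratio of -0.61 over 560 genes of chromosome 8 and -0.62 over 855 genes of chromosome 11, against -0.16 over all 9721 genes. Whether the cultures differ in chromosome content was not tested. The cells otherwise carried the ES cell label: the markers Pou5f1, Sox2 and Nanog summed to 917 CPM in LB and 1399 CPM in LBPXRS. The 5 fibroblast (feeder) markers summed to 14.1 CPM in LB, with Lum at 0, and to 4.50 CPM in LBPXRS, with Col1a2, Lum and Dcn at 0. The libraries shared 8 barcodes among kept cells.

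Between the cultures the 9 genes did not move as a group. Tcl1, Nr0b1, Eras and Dppa5a were at least 2-fold higher in LBPXRS, Dppa2, Dppa3 and Khdc3 were at least 2-fold lower, and Dppa4 and Zfp42 stayed within 2-fold. Over all genes, 8.25% were higher and 11.1% lower by this rule. The median log2 ratio of the 9 was 0.36, and they ran from -2.85 to 1.47. Of 12 naive factors listed, 11 were at the CPM minimum (Klf2, Klf4, Klf5, Esrrb, Tfcp2l1, Tbx3, Nanog, Prdm14, Fgf4, Nr5a2 and Tet2); 8 of these were higher in LBPXRS and 0 lower, with a median of 1.40.

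**Figure D1:**
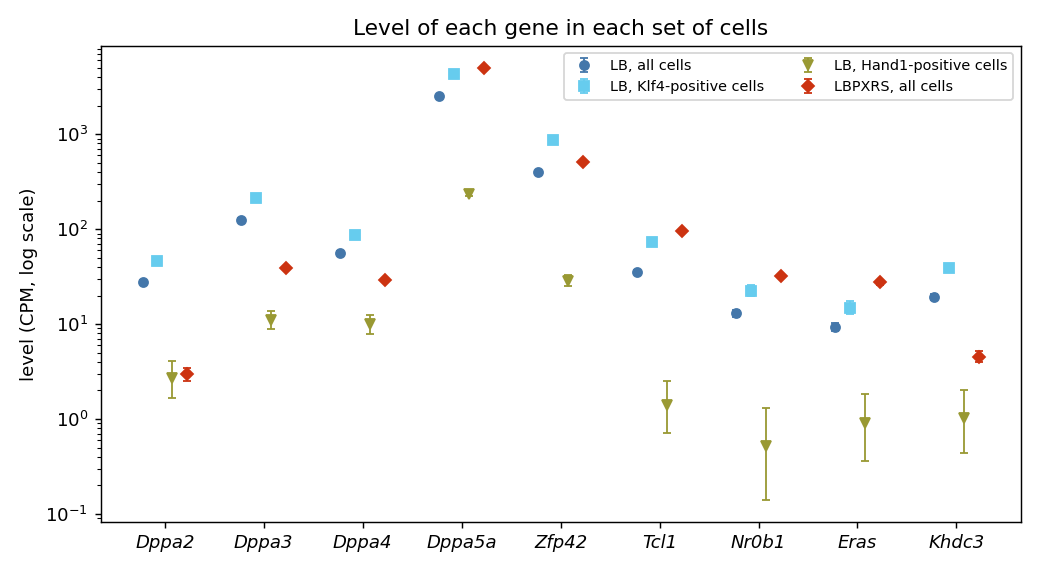
Level of each of the 9 genes (vertical axis, CPM on a log scale) in all LB cells, Klf4-positive LB cells, Hand1-positive LB cells and all LBPXRS cells; points are sums over the cells of 1 library and bars exact 95% Poisson intervals (counting error only). Each gene is lower in Hand1-positive than in Klf4-positive LB cells, while the LBPXRS point lies above all LB cells for Dppa5a, Zfp42, Tcl1, Nr0b1 and Eras and below them for Dppa2, Dppa3, Dppa4 and Khdc3.

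The Dppa2 and Dppa4 pair was lower in LBPXRS, to unequal degrees. Dppa2 (ENSMUSG00000072419) had an LB level of 27.7 CPM (26.1 to 29.2) and an LBPXRS level of 2.97 CPM (2.52 to 3.48), a log2 ratio of -2.85. Cells with a Dppa2 UMI made up 35.2% of LB and 5.36% of LBPXRS as counted, and 11.1% and 1.53% after each cell was thinned to 5000 UMIs. The intervals of its level in LBPXRS and in Hand1-positive LB cells (2.69 CPM, 1.67 to 4.12; thinned share 1.40%, 0.382 to 3.54) overlap, so Dppa2 in LBPXRS was not distinguishable at this depth from cells in which it is low. Dppa4 (ENSMUSG00000058550) had an LB level of 56.3 CPM (54.1 to 58.5) and an LBPXRS level of 28.9 CPM (27.5 to 30.4), a log2 ratio of -0.94, just inside the 2-fold limit. It was -1.02, past the limit, when chromosomes 8, 11 and Y were left out of the totals. Its thinned share was 22.1% in LB and 13.2% in LBPXRS, above the 4.20% of Hand1-positive LB cells (2.19 to 7.21). Of 12 listed genes of the 2-cell embryo that this pair can activate, 11 were in the gene table and 0 reached 5 CPM in either library. Sp110 had 33 UMIs in LB and 2 in LBPXRS, and the other 10 (among them Zscan4c, Zscan4d, Zfp352 and Duxf3) had 0 UMIs in both. Whether reads that match several genes were counted is not given in the sources used here. A count of 0 UMIs is therefore not read as absence of RNA.

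Dppa3 (ENSMUSG00000046323) had an LB level of 126 CPM (123 to 130) and an LBPXRS level of 38.9 CPM (37.2 to 40.6), a log2 ratio of -1.68. It was found in 31.9% of thinned LB cells and 14.2% of thinned LBPXRS cells, both above the 2.45% of Hand1-positive LB cells. Among 7 genes of the DNA methylation machinery to which Dppa3 is linked, the de novo methyltransferase genes were also lower in LBPXRS. Dnmt3b stood at 116 CPM in LB and 5.48 CPM in LBPXRS (log2 ratio -4.17), Dnmt3a at 26.6 and 6.10 CPM (-1.96), and their cofactor Dnmt3l at 30.3 and 12.9 CPM (-1.18). Tet2, which oxidises methylated cytosine, was higher (6.66 and 25.2 CPM, 1.77). Uhrf1 (0.51), Dnmt1 (0.09) and Tet1 (0.67) were within 2-fold.

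Dppa5a (ENSMUSG00000060461) was detected in nearly every LBPXRS cell. Its level was 2503 CPM among LB cells (2488 to 2517) and 5029 CPM among LBPXRS cells (5010 to 5049), a log2 ratio of 1.01 that lies on the 2-fold limit. The ratio was 0.92, under the limit, when chromosomes 8, 11 and Y were left out of the totals. As counted, 94.2% of LB cells and 99.96% of LBPXRS cells held a Dppa5a UMI, and after thinning 79.4% and 99.9%. Khdc3 (ENSMUSG00000092622), of the same gene family and chromosome, went the other way, from an LB level of 19.2 CPM (17.9 to 20.5) to an LBPXRS level of 4.53 CPM (3.97 to 5.15), a log2 ratio of -1.87. Its thinned share was 8.42% in LB and 2.52% in LBPXRS, against 0.350% of Hand1-positive LB cells (0.00885 to 1.93). Of 6 other genes listed for the subcortical maternal complex, Ooep, another KH-domain gene, was higher in LBPXRS (50.3 and 128 CPM, log2 ratio 1.33), and Zbed3 was within 2-fold (-0.32). Nlrp5, Tle6, Padi6 and Nlrp4f stayed below 5 CPM in both libraries.

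Zfp42 (ENSMUSG00000051176) had an LB level of 401 CPM (395 to 407) and an LBPXRS level of 515 CPM (509 to 521), a log2 ratio of 0.36. The share of cells with a UMI differed more than the level: 50.5% of thinned LB cells and 86.3% of thinned LBPXRS cells, against 13.3% of Hand1-positive LB cells (9.58 to 17.8). Zfp42 lies on chromosome 8, whose median log2 ratio of -0.61 is given above; the part of that shift in the Zfp42 value was not tested. Its relative Yy1 was at 50.2 CPM in LB and 33.6 CPM in LBPXRS (log2 ratio -0.56), and Yy2 had 0 UMIs.

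The genes of the AKT branch were higher in LBPXRS. Tcl1 (ENSMUSG00000041359) had an LB level of 35.0 CPM (33.3 to 36.8) and an LBPXRS level of 95.7 CPM (93.0 to 98.4), a log2 ratio of 1.42, and its thinned share was 13.8% and 36.0%. Eras (ENSMUSG00000031160) had an LB level of 9.30 CPM (8.43 to 10.2) and an LBPXRS level of 27.5 CPM (26.0 to 28.9), a log2 ratio of 1.47, with thinned shares of 3.75% and 12.4%. Pcsk1n, which overlaps Eras on the other strand, was at 12.2 CPM in LB and 139 CPM in LBPXRS (log2 ratio 3.41), and its part in the Eras count was not tested. The thinned shares of Tcl1 and Eras in both libraries lie above those of Hand1-positive LB cells (1.05% for Tcl1 and 0.699% for Eras). Of 10 AKT pathway genes, 8 reached 5 CPM and 0 of these passed 2-fold in either direction, with a median of -0.55. The cluster neighbours Tcl1b1 to Tcl1b5 had between 0 and 22 UMIs per library, so of this family mainly Tcl1 was measured here.

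Nr0b1 (ENSMUSG00000025056) had an LB level of 13.0 CPM (12.0 to 14.1) and an LBPXRS level of 32.4 CPM (30.8 to 34.0), a log2 ratio of 1.25. Its thinned share was 5.48% in LB and 13.4% in LBPXRS, against 0.350% of Hand1-positive LB cells. Of the factors it is known to act with, Pou5f1 was at 719 CPM in LB and 990 CPM in LBPXRS (log2 ratio 0.46), and Esrrb at 23.1 and 62.6 CPM (1.40).

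LB cells carried markers of several states, and the genes were next followed through them by single markers. A cell was called positive for a marker at 2 or more UMIs, and the sets overlap. Klf4, a naive factor, marked 385 cells (median 28177 UMIs per cell). Pou3f1 and Fgf5, genes of the formative state that follows, marked 218 cells (30056.5) and 53 cells. T, of the primitive streak, marked 389 cells (24294), Mesp1, of nascent mesoderm, 160 cells (21531.5), and Hand1, of extraembryonic mesoderm and trophoblast, 287 cells (26176). Klf4-positive cells included 15 of the T-positive and 15 of the Hand1-positive cells.

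Within LB the 9 genes did move together. All 9 were at least 2-fold lower in Hand1-positive than in Klf4-positive cells, where 8.07% of all genes were lower, with a median log2 ratio of -4.13 against 0.29 over all 9817 genes. All 9 were at least 2-fold lower in T-positive cells too, where 6.66% of all genes were lower, with a median of -3.21. In Pou3f1-positive cells 7 of 9 were lower, where 4.95% of all genes were, with a median of -2.46; Dppa4 (-0.99) and Eras (-0.89) were not past the limit. Of 12 naive factors, 9 were lower in Hand1-positive cells, Klf4 itself being the marker. Counting T as positive at 1 UMI in thinned cells left 8 of 9 lower, with Eras at -0.97.

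**Figure D2:**
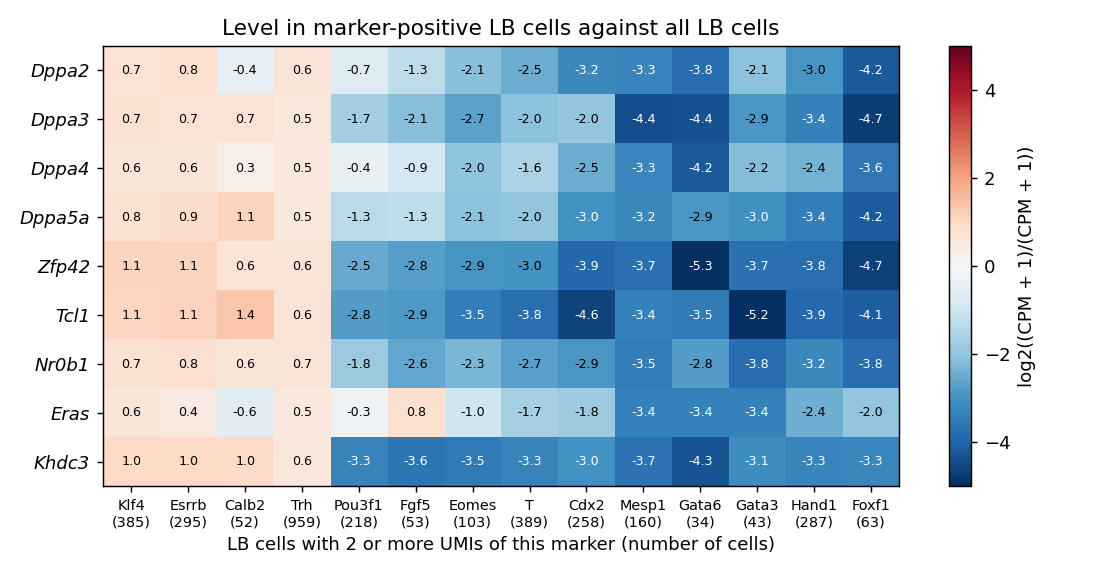
log2((CPM + 1)/(CPM + 1)) of each gene (rows) in LB cells positive for 1 marker (columns, with the number of cells) against all 1783 LB cells; red is higher and blue lower than the whole library. The Klf4, Esrrb and Trh columns are red for each gene, the Hand1, Mesp1, T, Cdx2 and Foxf1 columns are blue for each gene, and Eras in Fgf5-positive cells (0.8) is the one red value right of the Trh column.

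The sets in which the genes were high were alike for some genes and not for others. In 295 Esrrb-positive cells, 155 of which were also Klf4-positive, Dppa3 was 209 CPM (199.8 to 219), Zfp42 859 CPM (839 to 878), Tcl1 78.2 CPM (72.4 to 84.3) and Khdc3 38.8 CPM (34.8 to 43.2), with intervals that overlap those of the Klf4-positive cells (203.6 to 221, 850 to 885, 69.0 to 79.3 and 35.4 to 42.9). Dppa5a was higher in Esrrb-positive cells, at 4588 CPM (4543 to 4633) against 4300.35 CPM (4262 to 4339). In 959 Trh-positive cells, the broadest set, each gene lay between its Klf4-positive level and its level in all LB cells, as for Zfp42 at 622 CPM (612 to 631) and Dppa2 at 43.3 CPM (40.8 to 45.9). The 52 Calb2-positive cells, 26 of them Klf4-positive, divided the genes. They held Dppa5a at 5395 CPM (5277 to 5514), Tcl1 at 93.0 CPM (78.2 to 109.8) and Dppa3 at 209 CPM (186 to 233), but Dppa2 at 20.7 CPM (14.1 to 29.5) and Eras at 6.02 CPM (2.75 to 11.4). Zfp42 there was 623 CPM (584 to 664). Dppa2, Eras and Zfp42 were below the intervals of the Klf4-positive cells (42.0 to 50.1, 12.7 to 17.3 and 850 to 885), Dppa5a was above, and the intervals of the other 5 genes overlap.

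The share of the Klf4-positive level found in Pou3f1-positive cells differed between genes. Khdc3 was already near its lowest level in Pou3f1-positive cells: 39.0 CPM in Klf4-positive cells (35.4 to 42.9), 1.01 CPM in Pou3f1-positive cells (0.408 to 2.09) and 1.02 CPM in T-positive cells (0.489 to 1.88). Tcl1 was 74.0, 4.20 and 1.63 CPM in the same order, and Nr0b1 22.5, 2.90 and 1.12 CPM. Zfp42 was 867, 69.3 and 49.8 CPM. Pou3f1-positive cells thus held 2.60% of the Klf4-positive level of Khdc3 (1.04 to 5.41), 5.68% of Tcl1 (3.78 to 8.22), 7.99% of Zfp42 (7.27 to 8.76) and 12.9% of Nr0b1 (7.73 to 20.3).

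The other 5 genes were at higher percentages in Pou3f1-positive cells: 17.8% for Dppa3 (15.6 to 20.3, overlapping Nr0b1), 22.8% for Dppa5a (22.2 to 23.4), 37.2% for Dppa2 (30.2 to 45.6), 49.8% for Dppa4 (43.6 to 56.8) and 50.7% for Eras (36.4 to 69.7). Dppa4 was 86.4 CPM in Klf4-positive cells (81.0 to 92.1), 43.0 CPM in Pou3f1-positive cells (38.3 to 48.2) and 18.2 CPM in T-positive cells (15.6 to 21.0). Dppa2 was 45.9, 17.1 and 4.08 CPM, and Dppa5a was 4300.35, 982 and 636 CPM. Dppa3 was 212 CPM in Klf4-positive cells, 37.8 CPM in Pou3f1-positive cells (33.4 to 42.7) and 30.0 CPM in T-positive cells (26.7 to 33.6), the last pair having intervals that overlap. Eras was 14.9 CPM in Klf4-positive cells (12.7 to 17.3) and 7.54 CPM in Pou3f1-positive cells (5.63 to 9.88). In the 53 Fgf5-positive cells it was 16.8 CPM (10.99 to 24.6), not distinguishable from the Klf4-positive cells; 24 of these cells (45.3%) were also T-positive. The same Fgf5-positive cells held Zfp42 at 58.2 CPM (46.8 to 71.6) and Khdc3 at 0.647 CPM (0.0164 to 3.60), and each of the other 8 was lower there than in Klf4-positive cells.

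Levels in cells with mesoderm markers were low for each gene. Hand1-positive cells held 1.91% of the Klf4-positive level of Tcl1 (95% interval 0.948 to 3.43), 2.28% of Nr0b1 (0.616 to 5.91), 2.63% of Khdc3 (1.13 to 5.23), 3.30% of Zfp42 (2.88 to 3.77), 5.26% of Dppa3 (4.20 to 6.52), 5.43% of Dppa5a (5.18 to 5.69), 5.87% of Dppa2 (3.60 to 9.07), 6.05% of Eras (2.39 to 12.7) and 11.6% of Dppa4 (9.08 to 14.6). Neighbours in this order mostly do not differ beyond counting error: the intervals of Tcl1, Nr0b1 and Khdc3 overlap, and that of Eras overlaps Dppa4. The sizes rest on the marker cutoff: with cells positive at 1 or more UMIs, the log2 ratio of Hand1- to Klf4-positive cells moved from -4.96 to -2.47 for Tcl1, from -4.87 to -2.61 for Zfp42, from -4.20 to -2.40 for Dppa5a and from -2.99 to -1.91 for Dppa4. T-positive cells held 2.21% of Tcl1 and 21.0% of Dppa4, with 14.8% of Dppa5a and 5.74% of Zfp42. In 63 Foxf1-positive cells Dppa2 was down to 0.547 CPM (0.0139 to 3.05), and Nr0b1 had 0 UMIs there (upper limit 2.02 CPM). Eras had 0 UMIs in Mesp1-positive cells (upper limit 1.01 CPM).

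Free RNA in the droplets can give such low values. Klf4-positive cells, which should lack mesoderm genes, held a Hand1 UMI in 3.64% of thinned cells (2.00 to 6.03) and a T UMI in 2.60%, and Hand1-positive cells held a Klf4 UMI in 4.55%. The thinned shares of Dppa2, Dppa3, Dppa4, Tcl1, Nr0b1, Eras and Khdc3 in Hand1-positive cells, from 0.350% to 4.20%, are not above the interval of the Hand1 share and are not read as expression. Hand1 is 1 gene of another abundance, and 15 cells were positive for both markers, so it is a rough measure. The shares of Dppa5a (42.3%, 36.5 to 48.3) and Zfp42 (13.3%) are above it, and both genes also gave more UMIs in LB as a whole. The part of free RNA and of doublets in these values was not tested.

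Dppa3 differed among the marker sets in another way. It was 31.1 CPM in 258 Cdx2-positive cells (27.1 to 35.6) but 4.93 CPM in Mesp1-positive cells (2.92 to 7.79), while the intervals of Zfp42 in these sets overlap (25.4 CPM, 21.8 to 29.5, and 29.0 CPM, 23.8 to 35.1). Cells positive for T, Mesp1, Hand1 or Cdx2 and not Klf4-positive were therefore split by Dppa3, a division chosen after its values were seen: 521 cells had no Dppa3 UMI, 91 had 1 to 4 and 24 had 5 or more. Of the 8 listed germ cell genes, Dnd1, Tfap2c, Nanos3 and Prdm1, markers of primordial germ cells as Dppa3 is, were higher in the classes with Dppa3, as were the pluripotency genes Sox2 and Pou5f1. Dnd1 was 29.9 CPM without Dppa3 (27.0 to 33.1), 75.4 CPM at 1 to 4 UMIs (65.3 to 86.6) and 122 CPM at 5 or more (97.9 to 150). Tfap2c was 9.54, 21.2 and 52.8 CPM in the same order, and Nanos3 was 3.13 (2.23 to 4.26), 12.1 and 18.9 CPM (10.4 to 31.8). Prdm1 was 4.85 (3.72 to 6.21), 9.09 (5.82 to 13.5) and 20.3 CPM (11.4 to 33.5), the first pair with intervals that overlap. Mael, at 3 or 4 UMIs a class, was 0.235 CPM (0.0484 to 0.685), 1.52 CPM (0.413 to 3.88) and 4.06 CPM (0.837 to 11.9), and the outer intervals do not overlap. Without the called doublets the last was 3.08 CPM (0.373 to 11.1), which overlaps the first. For Kit (3.75, 3.03 and 2.71 CPM), Ddx4 (0.469, 1.52 and 1.35 CPM) and Dazl (3, 0 and 0 UMIs) the intervals of the 3 classes overlap. Sox2 was 10.9, 26.1 and 67.7 CPM, and Pou5f1 was 397, 759 and 769 CPM. Nanog was 31.3 CPM (28.3 to 34.5), 58.3 CPM (49.5 to 68.3) and 41.9 CPM (28.5 to 59.5), so only the middle class stood above the class without Dppa3. The other Dppa genes and Zfp42 were also higher: Zfp42 was 19.2, 47.3 and 94.7 CPM, Dppa4 10.5, 26.1 and 32.5 CPM, Dppa2 1.49, 7.95 and 8.12 CPM, and Dppa5a 289, 808 and 1241 CPM. The split thus did not single out germ cell genes. T itself differed less, at 258 CPM (249.6 to 267), 291 CPM (271 to 313) and 302 CPM (263 to 344). Prdm14, listed here as a naive factor, was 3.36, 9.47 and 16.2 CPM. For Eras (2.03, 1.52 and 1.35 CPM), Tcl1 and Nr0b1 the intervals of the 3 classes overlap. Khdc3 was 0.625 (0.270 to 1.23), 0.379 and 9.47 CPM (3.81 to 19.5). Without the called doublets its last value was 4.62 CPM (0.953 to 13.5), which overlaps the first.

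Compared with the cells with 5 or more Dppa3 UMIs, Klf4-positive cells held less Dnd1 (9.75 CPM, 7.99 to 11.8), less Nanos3 (6.65 CPM, 5.21 to 8.36) and less Tfap2c (30.1 CPM, 26.9 to 33.5), but more Kit (18.1 CPM, 15.7 to 20.8). The intervals overlap for Prdm1 (11.4 CPM, 9.48 to 13.6), Mael (9.66 CPM, 7.91 to 11.7), Dazl (5.56 CPM, 4.25 to 7.14) and Ddx4 (1.82 CPM, 1.11 to 2.81). The other naive markers were higher in Klf4-positive cells. In the cells with 5 or more Dppa3 UMIs, Zfp42 was 94.7 CPM against 867 CPM in Klf4-positive cells, Tcl1 4.06 CPM (0.837 to 11.9) against 74.0 CPM, and Khdc3 9.47 CPM (3.81 to 19.5) against 39.0 CPM. Scrublet called 3 of the 24 cells doublets; without them Dnd1 was 136 CPM, Nanos3 21.6 CPM, Tfap2c 60.1 CPM and Khdc3 4.62 CPM. Median depth was 23871, 27040 and 29775 UMIs in the 3 classes, and its part in the split was not tested. In LBPXRS the germ cell list was mixed: of 7 genes at the CPM minimum, Tfap2c and Dazl were higher and Prdm1, Nanos3 and Dnd1 lower than in LB.

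**Figure D3:**
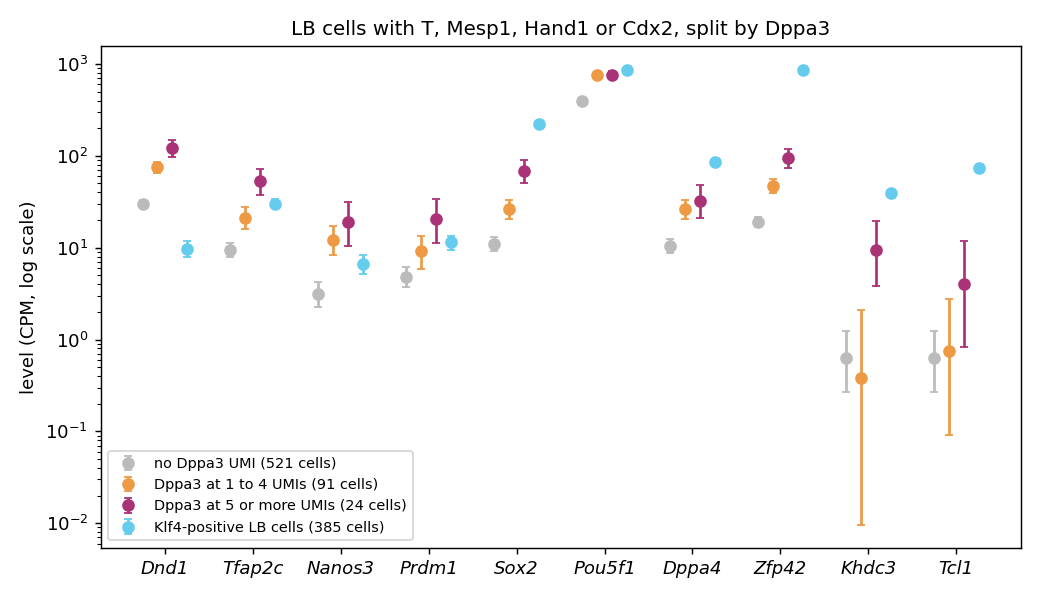
Level (CPM, log scale) of 4 germ cell genes, Sox2, Pou5f1 and 4 of the naive markers in LB cells positive for T, Mesp1, Hand1 or Cdx2 and not Klf4-positive, split by the number of Dppa3 UMIs, and in Klf4-positive LB cells; points are sums over cells and bars exact 95% Poisson intervals. Dnd1, Tfap2c, Nanos3, Prdm1, Sox2, Pou5f1, Dppa4 and Zfp42 lie higher in both classes with Dppa3 than in the class without (the Prdm1 bar at 1 to 4 UMIs overlaps the latter), and Dppa4, Zfp42, Khdc3 and Tcl1 in each of the 3 classes lie below the Klf4-positive cells.

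The comparison of the cultures was then repeated against Klf4-positive LB cells only, since Klf4-positive cells made up 21.6% of LB and 73.4% of LBPXRS. In this setting 0 of the 9 passed 2-fold upwards in LBPXRS (8.75% of all genes did) and 4 passed it downwards (6.94% of all genes). The log2 ratios of the higher group shrank to 0.23 for Dppa5a, 0.37 for Tcl1, 0.51 for Nr0b1 and 0.84 for Eras, each still above 0 beyond counting error. Zfp42 changed direction, to -0.75: Klf4-positive LB cells had 867 CPM (850 to 885) and LBPXRS cells 515 CPM. The median of chromosome 8 was -0.43 in this comparison.

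The lower group moved further down. LBPXRS cells had 6.47% of the Dppa2 level of Klf4-positive LB cells (5.37 to 7.76), 11.6% of Khdc3 (9.87 to 13.7), 18.3% of Dppa3 (17.3 to 19.5) and 33.5% of Dppa4 (30.8 to 36.4). The log2 ratios were -3.56, -2.85, -2.42 and -1.55, so Dppa4 passed the limit here. When Klf4-positive cells of both libraries were compared, an alternative chosen after the data were seen, 0 genes were higher (8.58% of all genes) and the same 4 were lower (6.84%): Dppa2 at -3.62, Khdc3 at -2.95, Dppa3 at -2.49 and Dppa4 at -1.52. Zfp42 was at -0.64 and Eras at 0.96. These comparisons share the LB cells and are not independent of each other. Among the naive factors, 3 of 11 were higher against Klf4-positive LB cells (Tfcp2l1, Tbx3 and Fgf4) and Nr5a2 was lower. Tet2 (0.75), Ooep (0.48) and Esrrb (0.37), past 2-fold against all LB cells, were within it for LBPXRS against Klf4-positive LB cells. Dnmt3b (-3.12), Dnmt3l (-2.01) and Dnmt3a (-1.43) were still past it.

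**Figure D4:**
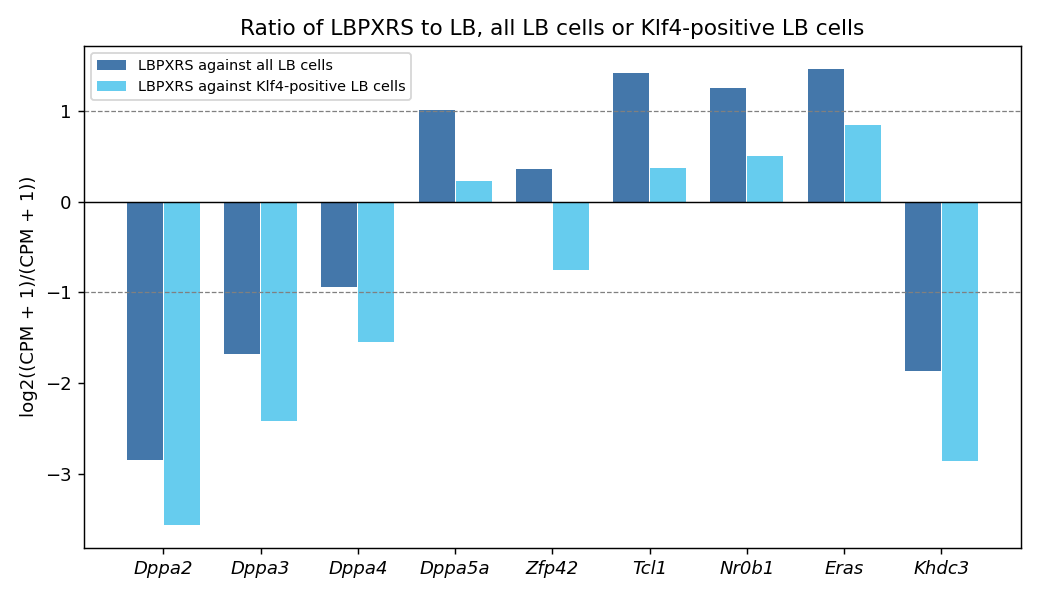
log2((CPM + 1)/(CPM + 1)) of LBPXRS over all LB cells (dark) and over Klf4-positive LB cells (light) for each gene; dashed lines mark 2-fold and each bar is 1 ratio of sums with no replicate. Dppa2, Dppa3, Dppa4 and Khdc3 are below 0 in both, Dppa5a, Tcl1, Nr0b1 and Eras above 0 in both but under 2-fold in the light bars, and Zfp42 changes sign.

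Within LBPXRS, Zfp42 differed between marker sets in both directions. It was 757 CPM in 39 Id3-positive cells (698 to 821), 267 CPM in 262 Gata2-positive cells (254 to 281) and 276 CPM in 50 Krt18-positive cells (246 to 309), against 554 CPM in Klf4-positive cells (547 to 562). Eras was also lower in Gata2-positive cells, at 13.9 CPM (10.9 to 17.4) against 29.7 CPM in Klf4-positive cells (28.1 to 31.5), while Tcl1 was higher, at 125 CPM (116 to 135) against 92.6 CPM. Dppa5a hardly moved (4937 and 4977 CPM). The Id3-positive cells (Id3 is a BMP target) held Dppa2 at 15.1 CPM (7.83 to 26.5, from 12 UMIs) against 2.97 CPM in the whole library. They held less Dppa5a (2938 CPM), less Tcl1 (32.8 CPM, 21.4 to 48.1) and less Nr0b1 (11.4 CPM, 5.20 to 21.6).

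Cell by cell, LB held many cells with few of the genes, and LBPXRS hardly any. After thinning, a median of 2 of the 9 genes was found per LB cell and 3 per LBPXRS cell. The LBPXRS counts rest largely on Dppa5a and Zfp42, found in 99.9% and 86.3% of its thinned cells. Tcl1 was found in 36.0% of them and each of the others in 14.2% or less. Cells with 0 or 1 of the genes made up 41.5% of LB (39.2 to 43.9) and 4.96% of LBPXRS (4.16 to 5.86). Cells with 4 or more made up 26.7% of LB and 20.5% of LBPXRS. Klf4-positive LB cells had a median of 4, and 52.7% of them had 4 or more (47.6 to 57.8), against 20.8% of Klf4-positive LBPXRS cells (19.0 to 22.6). Among Hand1-positive LB cells 88.8% had 0 or 1, and 0 of 286 had 4 or more (exact upper limit 1.28%).

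**Figure D5:**
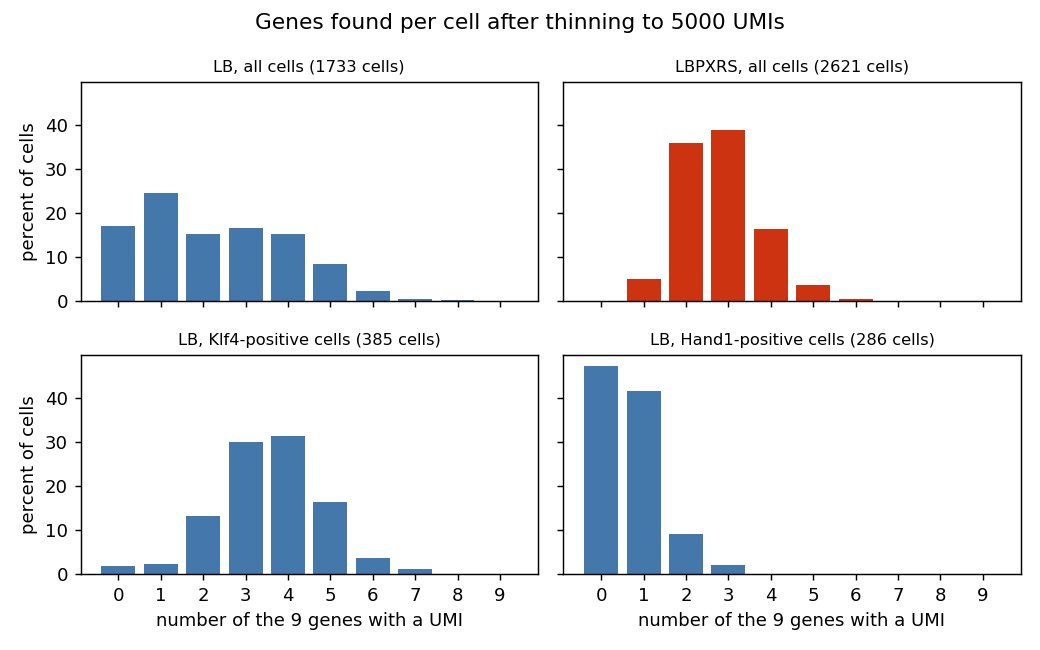
Percent of cells (vertical axis) by how many of the 9 genes had a UMI after thinning to 5000 UMIs, in all LB cells, all LBPXRS cells, and Klf4- and Hand1-positive LB cells. LB spreads from 0 upwards with 41.5% of cells at 0 or 1, LBPXRS is narrow around a median of 3, and its 2 LB subsets sit at medians of 4 and 1.

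Single genes were more uneven in LB. The Fano factor (variance over mean, 1 for counting noise alone, and larger for genes with a higher mean) of thinned counts was 13.1 in LB and 6.30 in LBPXRS for Dppa5a, and 3.80 and 1.67 for Zfp42. Dppa3 was the least even of the lower group, with 2.18 in LB and 1.49 in LBPXRS. Among Klf4-positive LB cells the values were lower than in the whole library: 4.65 for Dppa5a, 1.99 for Zfp42 and 1.58 for Dppa3. Eras went the other way, at 1.42 against 1.18 in the whole library. The other genes ran from 0.974 (Dppa4 in LBPXRS) to 1.58 (Khdc3 in LB).

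Over the 36 pairs of the genes, Spearman correlations across 1783 LB cells ran from 0.15 to 0.76 with a median of 0.42, and 26 pairs were over 0.3. Dppa5a and Zfp42 gave the highest value (0.76), and Tcl1 with Eras the lowest (0.15). Across 2705 LBPXRS cells the median was 0.021 and 0 pairs were over 0.3, the highest being Dppa3 with Dppa5a (0.16). Within Klf4-positive LB cells the median was 0.12, with Dppa2 and Dppa4 highest (0.32). Cells share a library and differ in depth, and sparse counts lower such values, so they are descriptions without a test.

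Over 9 groups of cells that do not overlap (7 in LB and 2 in LBPXRS), Dppa2 was most like Dppa4 among the members (Pearson r 0.93 of log2 CPM), and Zfp42 was most like Nr0b1 and Tcl1 (both 0.96). Eras and Khdc3 were least alike (0.40). Among 9022 genes the closest profiles were Pnma5 for Dppa2 (0.97), Hsd17b14 for Dppa3 (0.96), Tst for Dppa4 (0.99), Rps21 for Dppa5a (0.99), Pgc for Zfp42 (0.99), Arl14epl for Tcl1 (0.99), Tuba3a for Nr0b1 (0.99), Zcwpw1 for Eras (0.98) and Msrb2 for Khdc3 (0.97). Ooep was the third closest to Dppa5a (0.99). With 9 points from 2 libraries such values arise easily and describe these cells only.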

How the data were processed

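Each library was made with 10x Genomics 3′ version 2 chemistry, per the labels' protocols. The authors deposited UMI counts for each gene in each barcode, from Cell Ranger 4.0.0 and genome build mm10, per the submitters' processing notes; annotation and strand settings are not given in the sources used here. Barcodes with at least 1000 genes and at most 10% mitochondrial UMIs were kept. UMI counts were summed over cells and scaled to CPM, and ratios used a pseudocount of 1, which understates changes of low genes. Thinning drew 5000 UMIs per cell and left out 50 LB and 84 LBPXRS cells. Scrublet (scanpy 1.11.5) called 12 LB cells (0.673%) and 14 LBPXRS cells (0.518%) doublets; they were kept. Alternatives changed the filters, scaling (TMM in edgeR 4.0.16), pseudocount, marker cutoff and cells used. Scripts ran in Python 3.11.15 and R 4.3.3 and were tested on simulated data. Named genes were the 9 members, the listed related genes, and the closest profiles by Pearson r. The members, lists and markers were chosen with earlier results of these data known.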

Additional observations from a re-analysis of the deposited data

Results flagged for a closer look

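Barcodes left out by the filter still carried RNA of the 9 genes. The 225 barcodes left out of LB (median 1801 UMIs) held the 9 genes at a summed 4072 CPM, against 3191 CPM in kept cells. The 406 left out of LBPXRS (median 1043 UMIs) held 7031 CPM, against 5775 CPM in kept cells. Dppa5a alone gave 3270.21 CPM and 6203 CPM of these sums. They stand out because these barcodes enter none of the main comparisons. A lower gene minimum, tried as an alternative, admits some of them. Whether the barcodes left out are damaged cells or free RNA was not tested.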

How the results depend on the processing

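With 1 library per condition no setting speaks to differences between cultures. No paired analysis was possible because there is 1 library per condition. The count of 4 genes at least 2-fold higher in LBPXRS became 0 with LB restricted to Klf4-positive cells and 0 with Klf4-positive cells of both libraries (the latter chosen after seeing the data). Under those restrictions Zfp42 changed sign (-0.75 and -0.64); 97 of 99 log2 ratios kept theirs over 11 settings. Leaving chromosomes 8, 11 and Y out of the totals gave 3 higher and 4 lower, Dppa5a moving to 0.92 and Dppa4 to -1.02. TMM scaling moved the median of all genes from -0.16 to -0.0075, and the share of higher among changed genes from 42.5% to 54.9%, with members' counts at 4 and 3. All 63 ratios of Hand1- to Klf4-positive cells, and all 63 of T- to Klf4-positive cells, kept their sign over 7 settings each, but 19 and 20 of them moved beyond the counting interval, the furthest mostly with markers counted from 1 UMI. Sets of few cells (34 to 63) and genes under about 5 CPM are limited by depth.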
